A study of Mus musculus with 9 samples.

Results

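The MHC class I presentation genes described here are the 9 genes H2-K1, H2-D1, B2m, Tap1, Tap2, Tapbp, H2-T23, Nlrc5 and Erap1, chosen by gene name among the 22174 genes of the deposited normalized table. All 9 were also among the 11165 genes with enough reads to be tested. RNA was sequenced from splenic B cells of 9 C57/BL6NTac mice, 1 library per mouse, with 3 mice in each of 3 groups. The Eµ-MTCP1 mice carried the human transgene hMTCP1 and the Eµ-TCL1 mice carried hTCL1, each driven in B cells by an immunoglobulin heavy chain variable region promoter and the Eµ enhancer. The wildtype mice were littermates with no transgene. Per the study the Eµ-MTCP1 mice of the RNA experiment came from 1 founder line, so line and transgene cannot be told apart. The deposited design text says that the transgenic mice were of matched age and heavily diseased when sampled, but gives no ages. B cells were enriched by negative selection from whole spleen, so a library can hold both leukemic and residual normal B cells.

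MHC class I molecules display peptides from inside the cell to CD8 T cells. A polymorphic heavy chain (H2-K1 and H2-D1 in mice) folds with beta-2-microglobulin (B2m) in the endoplasmic reticulum. Tap1 and Tap2 form the transporter that brings peptides in from the cytosol, tapasin (Tapbp) bridges the transporter and the empty heavy chain, and the aminopeptidase Erap1 trims peptides to the length that fits the groove. H2-T23 encodes Qa-1, a class I-like heavy chain recognised by receptors on natural killer and T cells. Nlrc5 is the transactivator of the class I promoters, and it and its targets are inducible by interferon. Most normal cells carry class I, and its loss is a known route by which tumor cells escape T cells.

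Of the 9 genes, 6 lie within the H2 complex on chromosome 17. In GRCm38 with GENCODE M21, the genes are Tapbp (chr17:33915899-33929292, plus strand), H2-K1 (chr17:33996017-34000347, minus), Tap1 (chr17:34187553-34197225, plus), Tap2 (chr17:34203527-34216321, plus), H2-D1 (chr17:35262730-35267499, plus) and H2-T23 (chr17:36029773-36032855, minus). The other 3 are B2m (chr2:122147686-122153083, plus), Nlrc5 (chr8:94434356-94527272, plus) and Erap1 (chr13:74639568-74693201, plus). The values below are sums over all transcripts of a gene.

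The promoters of the heavy chains and of B2m share a known arrangement of short elements through which Nlrc5 and interferon act, and 3 stretches of 135 bases are shown to place them. RefSeq promoter sequences on GRCm38.p6, from 250 bases before the start site to 50 bases from it on, were matched for 7 of the 9 genes. Those of Tap2 and Nlrc5 were not matched. Both strands were searched for GAANNGAAA as in interferon-response elements, GGATTCCCC as in a kappa B site, TGACG as in the X2 box and ATTGG as in the Y box. The stretches are set so that TGACG starts at the same base in each, and capitals mark every match to these letters on either strand. Other spacings of the interferon-response letters were not searched and stay in lower case. The B2m stretch holds such a case, gaaactgaaa, with the letters further apart, so its lack of capitals there does not show that it lacks such an element.
H2-K1, chr17:34000328-34000462, minus strand: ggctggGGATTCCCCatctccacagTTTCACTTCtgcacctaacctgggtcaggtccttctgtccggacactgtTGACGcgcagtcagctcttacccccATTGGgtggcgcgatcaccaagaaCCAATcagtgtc
H2-D1, chr17:35262919-35263053, plus strand: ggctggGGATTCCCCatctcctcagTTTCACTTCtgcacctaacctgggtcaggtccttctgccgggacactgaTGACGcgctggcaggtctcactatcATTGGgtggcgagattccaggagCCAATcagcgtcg
B2m, chr2:122147535-122147669, plus strand: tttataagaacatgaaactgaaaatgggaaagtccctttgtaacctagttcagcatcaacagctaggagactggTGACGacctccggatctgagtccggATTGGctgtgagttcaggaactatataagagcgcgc

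In all 3 stretches ATTGG began 25 bases after TGACG. The letters TGACG alone were found in 21.02% and ATTGG alone in 37.9% of 27025 promoters of the same length, while both at that distance, a spacing chosen after it was seen here, were found in 26 promoters (0.0962%). H2-K1 and H2-D1 were identical at 105 of the 135 aligned bases without gaps and shared the GGATTCCCC and the interferon-response-like letters, which were found in 0.274% and 7.56% of promoters. B2m was identical to either at 51 bases. The Tap1 promoter held TGACG without ATTGG at that distance, and the Tapbp and H2-T23 promoters held ATTGG alone. None of the searched letters was matched in the Erap1 window. That window did hold tttcactttc, which on the other strand has the interferon-response letters further apart, a spacing that was not searched. A match of letters describes the sequence and does not show that a factor binds.

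The libraries held 6447542 to 8033303 reads assigned to annotated genes, and each of the 9 genes had at least 306 reads in every library. The deposited normalized value of human TCL1A, on a scale like log2, was 14.9 to 15.6 in the Eµ-TCL1 mice and 6.04 to 6.96 in all others, and that of human MTCP1 was 11.1 to 12.3 in the Eµ-MTCP1 mice and 5.85 to 6.19 in all others, as the labels say. The 4 B cell markers Cd79a, Cd79b, Ms4a1 and Cd22 summed to 5538 to 8553 CPM, which are reads scaled to the library total times its TMM factor, and all were detected in every library. The 5 macrophage and monocyte markers summed to 139 to 1287 CPM, the 6 T cell markers to 2.28 to 45.8 CPM, the 3 natural killer cell markers to 2.66 to 88.7 CPM, the 5 erythroid markers to 22.4 to 309.7 CPM, the 4 plasma cell markers to 100.8 to 2892 CPM and the 4 dendritic cell markers to 1.82 to 47.3 CPM. In the wildtype mice the dendritic marker sum was 21.3 to 47.3 CPM, above the 3.14 to 18.3 CPM of the Eµ-MTCP1 mice. Wildtype mouse Z2755 was sequenced on another lane than the other 8, and without it none of the 9 genes was called either. Since these are bulk samples, fewer cells of a type and less RNA per cell cannot be told apart.

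Class I heavy chains and B2m were among the most abundant messages of these B cells. Per unit of transcript length, on the standard mouse reference, H2-K1 averaged 2100 ± 675 TPM, a level scaled by length and library total (SD, n = 9 mice), H2-D1 2054 ± 454 and B2m 1890 ± 688, which placed them at 78, 81 and 97 in the order of 27085 genes. Their ranges over mice overlapped, and their order on the coding-sequence reference was different, with H2-D1 first at 2651 ± 527 TPM. H2-T23 followed at 463 ± 141 TPM, below B2m in 9 of 9 mice. Tapbp (146 ± 43.0 TPM), Tap2 (111 ± 20.9 TPM) and Tap1 (109 ± 41.4 TPM) formed the next group with overlapping ranges. Nlrc5 (20.02 ± 9.21 TPM) and Erap1 (13.9 ± 3.85 TPM) were the lowest, also with overlapping ranges, and Nlrc5 was below Tap1 in 9 of 9 mice. H2-K1, H2-D1 and H2-T23 belong to a family of near-identical genes, so the division of shared reads among them by the authors' quantifier is uncertain.

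The heavy chains were expressed at high levels in every mouse, transgenic or not. H2-K1, in CPM after TMM scaling, was 3424, 1721 and 2582 in the Eµ-MTCP1 mice, 5423, 3227 and 2652 in the Eµ-TCL1 mice and 2031, 2174 and 3347 in the wildtype mice. The group means were 2576 ± 852, 3767 ± 1462 and 2518 ± 722 CPM (SD, n = 3 each). Values here and below are in the order of mice Z2551, Z2606 and Z2641, then B4376, B4437 and C1594, then Z2754, Z2755 and Z2785. B4376 was the highest, Z2606 the lowest, and the 3 groups overlapped. H2-D1 was 4973, 3253 and 3849 in the Eµ-MTCP1 mice, 5722, 5360 and 4872 in the Eµ-TCL1 mice and 3466, 4108 and 4517 in the wildtype mice. Every Eµ-TCL1 mouse was above every wildtype mouse for H2-D1, while the Eµ-MTCP1 mice spread over both. H2-T23 was 960, 923 and 534 in the Eµ-MTCP1 mice, 1575, 925 and 929 in the Eµ-TCL1 mice and 738, 751 and 1070 in the wildtype mice. Its groups overlapped, with B4376 the highest and Eµ-MTCP1 mouse Z2641 the lowest.

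B2m, the shared light chain without which class I does not reach the surface, was 859, 436 and 564 in the Eµ-MTCP1 mice, 1339, 936 and 629 in the Eµ-TCL1 mice and 947, 728 and 829 in the wildtype mice. Means were 620 ± 217, 968 ± 356 and 835 ± 110 CPM. Of the Eµ-MTCP1 mice, 2 lay below all wildtype mice and 1 lay between them, and the Eµ-TCL1 mice spread over the whole wildtype range and beyond it. The spread within a transgenic group was thus as large as the distance between group means.

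For the peptide transporter, Tap1, in CPM, was 274, 194 and 316 in the Eµ-MTCP1 mice, 609, 353 and 237 in the Eµ-TCL1 mice and 271, 350 and 412 in the wildtype mice. Tap2, in CPM, was 443, 405 and 456 in the Eµ-MTCP1 mice, 595, 431 and 471 in the Eµ-TCL1 mice and 310, 437 and 460 in the wildtype mice. Both subunits overlapped between all groups, and Tap2 varied less among mice, 1.92-fold from lowest to highest against 3.14-fold for Tap1. Tapbp, the bridge to the transporter, in CPM, was 272, 263 and 251 in the Eµ-MTCP1 mice, 435, 309 and 374 in the Eµ-TCL1 mice and 268, 345 and 411 in the wildtype mice. The 3 Eµ-MTCP1 mice sat close together (262 ± 10.1 CPM) and below every Eµ-TCL1 mouse, but the lowest wildtype mouse lay among them. Erap1, the trimming peptidase, in CPM, was 58.1, 60.7 and 58.1 in the Eµ-MTCP1 mice, 77.6, 79.6 and 68.6 in the Eµ-TCL1 mice and 83.5, 47 and 55.6 in the wildtype mice, with every Eµ-MTCP1 mouse below every Eµ-TCL1 mouse and wildtype mice on both sides of them.

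Nlrc5, the transactivator, varied most of the 9 genes. In CPM it was 80.2, 58.5 and 117 in the Eµ-MTCP1 mice, 197, 93.9 and 42.9 in the Eµ-TCL1 mice and 68.9, 99.9 and 134 in the wildtype mice, a 4.60-fold range over mice. The highest and the lowest values of all 9 mice were both in the Eµ-TCL1 group, so the groups could not be ordered by this gene.

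**Figure D1:**
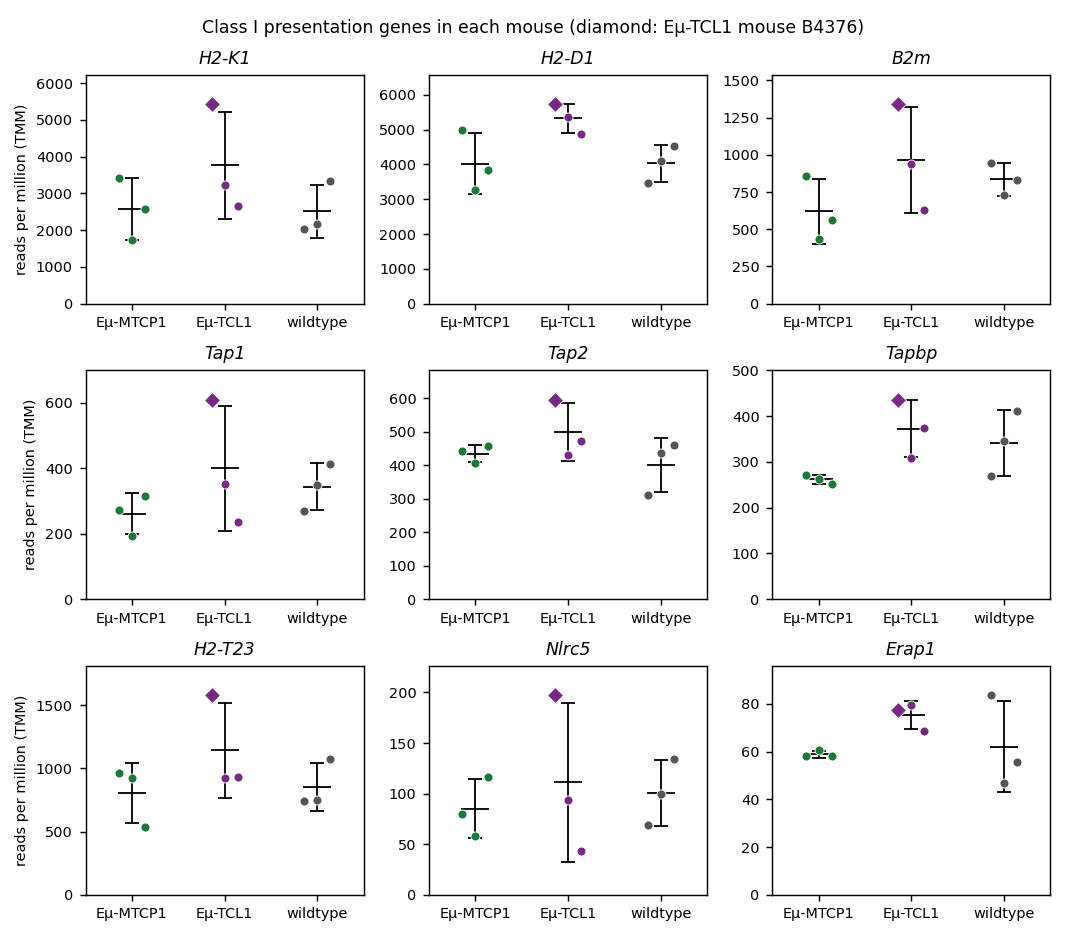
CPM after TMM scaling (vertical axis, starting at 0) for each of the 9 class I presentation genes in 3 Eµ-MTCP1, 3 Eµ-TCL1 and 3 wildtype mice, with 1 point per mouse and bars for the mean ± SD. Eµ-TCL1 mouse B4376 (diamond) was the highest of all mice for 8 of the 9 genes, and the groups overlapped in most panels.

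The first comparison asks whether splenic B cells of Eµ-MTCP1 mice differ from wildtype B cells in class I presentation. None of the 9 genes was called higher or lower (edgeR quasi-likelihood test, adjusted p under 0.05). None reached an unadjusted p under 0.05, and DESeq2 also called none. Of all genes tested, 5.49% were called higher and 3.99% lower. The 2 groups overlapped in all 9 genes, while 29.9% of all genes did not overlap. The heavy chains lay close to 0, with a log2 fold change of 0.03 for H2-K1 (95% interval -0.74 to 0.81, adjusted p = 0.965) and -0.00 for H2-D1 (-0.51 to 0.51, adjusted p = 0.997). H2-T23 was at -0.08 (-0.76 to 0.60). The lowest values were those of B2m at -0.43 (-1.14 to 0.28, adjusted p = 0.433), Tap1 at -0.40 (-1.14 to 0.34, adjusted p = 0.493) and Tapbp at -0.38 (-0.84 to 0.08, adjusted p = 0.283). Tap2 was at 0.11 (-0.36 to 0.58), Nlrc5 at -0.24 (-1.30 to 0.82) and Erap1 at -0.07 (-0.56 to 0.41). The median of the 9 genes was -0.08, beside -0.02 over all genes tested. With 1 mouse left out, this median of the 9 genes ran from -0.27 (without Z2755) to 0.01 (without Z2785). For 6 of the 9 genes the interval lay within a 2-fold change in either direction. For B2m, Tap1 and Nlrc5 it reached below 2-fold lower, so a decrease of that size could not be told from none with these mice.

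For Eµ-TCL1 against wildtype, the point estimates of all 9 genes were above 0, from 0.13 to 0.58, but again none was called by edgeR or by DESeq2, and none had an unadjusted p under 0.05. Of all genes tested, 5.07% were called higher and 4.13% lower. H2-K1 had the highest value, a log2 fold change of 0.58 (95% interval -0.20 to 1.36, adjusted p = 0.338), followed by H2-T23 at 0.42 (-0.26 to 1.10, adjusted p = 0.431) and H2-D1 at 0.40 (-0.11 to 0.91, adjusted p = 0.315). H2-D1 was the only one of the 9 genes whose groups did not overlap here, and 32.6% of all genes tested did not overlap in either direction. The peptide loading genes were at 0.31 for Tap2, 0.28 for Erap1, 0.22 for Tap1, 0.21 for B2m and 0.13 for Tapbp, and Nlrc5 was at 0.14 (-0.92 to 1.201, adjusted p = 0.885). The median of the 9 genes was 0.28, beside -0.01 over all genes. The T cell marker sum was 8.68 to 45.8 CPM in the Eµ-TCL1 mice and 2.28 to 6.496 CPM in the wildtype mice, without overlap. Of its genes, Cd3g and Cd8a did not overlap between these mice, Cd8a with 2 to 18 reads against 0. Cd3e, Cd3d, Cd4 and Trac did overlap. In C1594, Cd3g was 7.42 of the 8.68 CPM. The part of T cells in these values was not tested. The estimates depended in part on mouse B4376. Without it, 5 of the 9 estimates were above 0, their median was 0.12, and Nlrc5, Tap1 and B2m were at -0.56, -0.22 and -0.09. With length offsets on the standard reference, an alternative chosen after the data were seen, Erap1 alone passed the threshold (0.81, adjusted p = 0.0379).

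Set directly against each other, the models did not differ in any of the 9 genes at the threshold. Few genes of any kind were called between them, 0.0269% of those tested higher and 0.0179% lower in Eµ-TCL1. All 9 point estimates were above 0 in Eµ-TCL1 against Eµ-MTCP1, from 0.20 for Tap2 to 0.64 for B2m, with a median of 0.50 beside -0.00 over all genes. Tapbp was the only one with an unadjusted p under 0.05 (log2 fold change 0.51, 95% interval 0.05 to 0.97, unadjusted p = 0.0344, adjusted p = 0.701), a share to be read beside the 6.42% of all genes that reached it. DESeq2 called none and put 2 under an unadjusted p of 0.05. Tapbp and Erap1 did not overlap between the models, as was so for 11% of all genes. Without B4376 the median fell to 0.20 and Nlrc5 was at -0.31. This comparison shares its samples with both comparisons against wildtype and is not independent of them.

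With the 6 transgenic mice averaged over both models, none of the 9 genes was called by edgeR or DESeq2, and none had an unadjusted p under 0.05, while 6.95% of all genes were called higher and 6.16% lower. The groups overlapped in all 9 genes and did not in 18.6% of all genes. The log2 fold changes ran from -0.13 for Tapbp (-0.53 to 0.27) to 0.31 for H2-K1 (-0.37 to 0.99), with H2-D1 at 0.20 (-0.24 to 0.64) and B2m at -0.11 (-0.72 to 0.50). All 9 intervals lay within a 2-fold change in either direction. These intervals are for 1 gene at a time. Changes beyond 2-fold in the average of the 2 models were therefore outside the 95% interval of each of the 9 genes, but smaller ones could not be told from none with these mice.

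**Figure D2:**
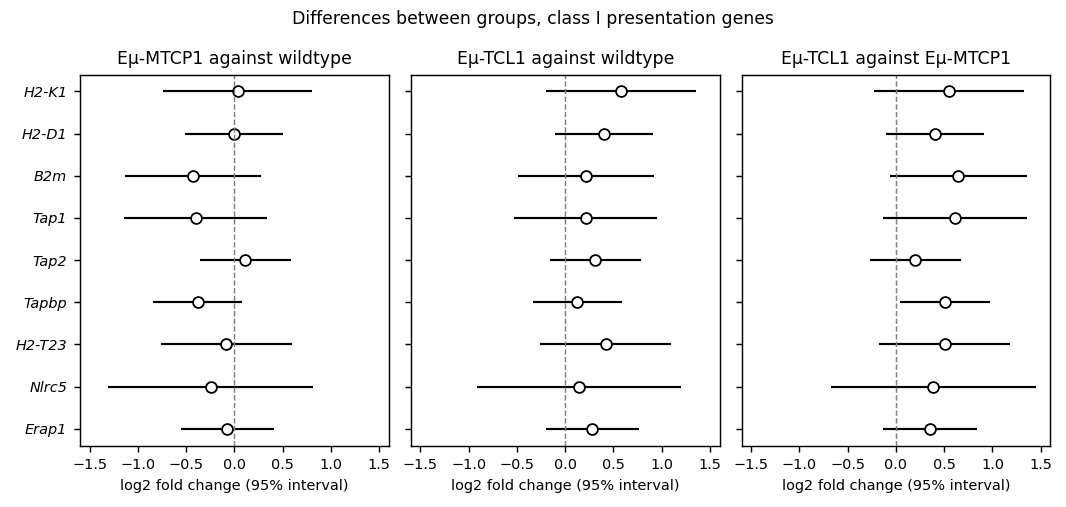
Log2 fold change (points) with its 95% interval (lines) for the 9 class I presentation genes in 3 comparisons of 3 mice against 3, from the edgeR fit over all 9 mice. Nearly all intervals cross 0. The exception is Tapbp in Eµ-TCL1 against Eµ-MTCP1, at 0.51 (0.05 to 0.97), which did not pass after adjustment.

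The deposited normalized values, which the authors computed with DESeq2 on the same reference, were also high, and the groups of Nlrc5 overlapped on them as well. On their log2-like scale H2-D1 ran from 14.5 to 15.1 in Eµ-MTCP1, 15.1 to 15.3 in Eµ-TCL1 and 14.7 to 14.9 in wildtype mice. Nlrc5 ran from 9.06 to 9.97, from 8.66 to 10.3 and from 9.39 to 10.2 in the same order.

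Several of the 9 genes rose and fell together from mouse to mouse. B4376 was the highest of the 9 mice for 8 genes, all but Erap1. Eµ-MTCP1 mouse Z2606 was the lowest for 4 genes (H2-K1, H2-D1, B2m and Tap1). Z2606 also had the highest plasma cell marker sum, 2892 CPM, and the highest share of reads on immunoglobulin genes, 15.6%, and the other mice had 100.8 to 1946 CPM and 3.39% to 9.39%. Their part in the low values was not tested. Over the 36 pairs of genes, Pearson's r of log2 CPM over the 9 mice had a median of 0.61 and was above 0 in 34 pairs. With the group means removed the median was 0.54, so the shared variation was also present within groups. The 2 pairs below 0 were those of Erap1 with Tap2 (-0.15) and with Nlrc5 (-0.059), and Erap1 had r of 0.020 to 0.49 with the other 6 genes, highest with B2m. With the group means removed, its values ran from -0.68 with Tap2 and -0.60 with Tapbp to 0.34 with B2m. The pairs share library and scaling factor, and no test was made on them.

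Tap1 followed Nlrc5 most closely. Across the 9 mice r was 0.92 (exact permutation p = 0.000984, adjusted p = 0.0108 over 11 relations with Nlrc5) and Spearman's rho was 0.92 (exact permutation p = 0.00131, adjusted p = 0.0144). Without the 2 mice farthest from the median of Nlrc5, B4376 and C1594, r was 0.90, and with the group means removed it was 0.99. For H2-K1 r was 0.69 (exact permutation p = 0.0413, adjusted p = 0.114), with rho 0.55 (exact permutation p = 0.133). The remaining 6 genes had r between -0.06 and 0.59, with adjusted exact permutation p from 0.197 to 0.883. Tap1 thus shared the order of Nlrc5 over mice, whereas for the abundant heavy chains, B2m, Tap2, Tapbp, H2-T23 and Erap1 such a relation was not detected after adjustment.

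Markers of other cell types moved with Nlrc5 too. B4376 had the highest sums of macrophage and monocyte markers (1287 CPM), natural killer cell markers (88.7 CPM) and T cell markers (45.8 CPM) of all 9 mice, and C1594, the lowest in Nlrc5, had the lowest sums of the first 2 kinds (139 and 2.66 CPM). Over the 9 mice the natural killer marker sum had r of 0.89 with Nlrc5 (exact permutation p = 0.00215, adjusted p = 0.0118) and rho of 0.83 (exact permutation p = 0.00827, adjusted p = 0.0455), and r was 0.63 without B4376 and C1594. Most of this sum was Nkg7, a granule protein of cytotoxic cells, at 81.5 of the 88.7 CPM in B4376. Ncr1 and Klrb1c had 44 and 8 reads there, and 45 and 13 reads in wildtype mouse Z2785. Z2641 had 24.1 CPM of Nkg7 and 0 reads of both. The relation of each marker alone with Nlrc5 was not tested. The macrophage sum had r of 0.70 (exact permutation p = 0.0370, adjusted p = 0.114), with rho 0.60 (exact permutation p = 0.0968), and r fell to 0.10 without those 2 mice, so this relation rested on them. The T cell sum had r of 0.55 (exact permutation p = 0.126, adjusted p = 0.197) and rho 0.40 (exact permutation p = 0.291). In Z2641, Cd3g alone was 22.5 of the 23.1 CPM of that sum. The part of non-B cells in the level of Nlrc5 and the other class I genes was not tested. The 4 B cell markers of B4376 summed to 6216 CPM, within the range of the other mice.

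**Figure D3:**
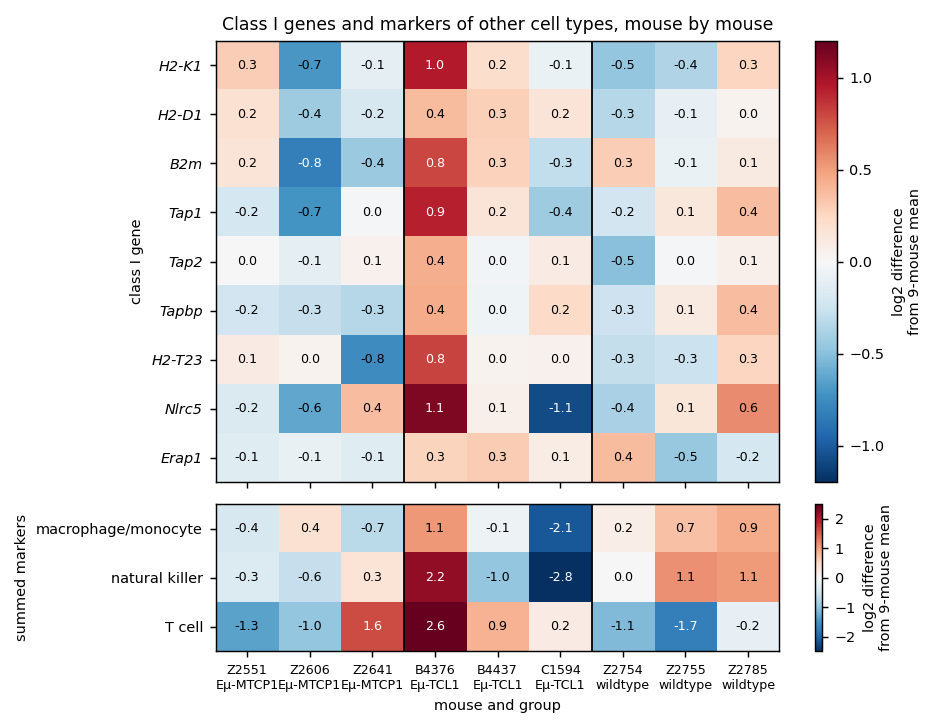
Log2 difference of each mouse from the mean of all 9 mice for the 9 class I genes (top, in CPM) and for the summed markers of macrophages and monocytes, natural killer cells and T cells (bottom), with red above and blue below the mean and a separate color scale for each part. B4376 was above the mean in every row, and C1594 was lowest in Nlrc5 and in the first 2 marker sums.

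Among 8960 other genes with a mean of at least 5 CPM, those most like Nlrc5 over the 9 mice were Fgl2 (a fibrinogen-like immune regulator, r = 0.94), Fgr (a Src family kinase, r = 0.92), Lgals3bp (a galectin-binding glycoprotein, r = 0.92), Tap1 (r = 0.92) and the class I-like gene H2-T10 (r = 0.91). So 2 of the 5 closest genes belonged to the class I pathway, and Tap1 had rank 4. The most opposed were Ap1g1, an adaptor subunit of vesicle traffic (r = -0.92), Fbxo4 (r = -0.90) and Odc1, the first enzyme of polyamine synthesis (r = -0.90). Of all the genes, 0.692% had r over 0.8 with Nlrc5, and the median r was -0.03. Among the other class I heavy chain and class I-like genes, r ranged from -0.19 for Mr1 to 0.91 for H2-T10. H2-T22 (0.88), H2-Q6 (0.84), H2-M3 (0.82) and H2-Q7 (0.73) lay at the upper end, Cd1d1 (0.63), Hfe (0.61), H2-Q4 (0.51) and H2-T24 (0.49) between, and Fcgrt (0.26) near the lower end. These genes were ranked by r and so carry no test.

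Ratios within a library do not depend on the scaling between libraries, and they ask whether the parts of the pathway kept their proportions. None of 4 ratios of TPM, on the coding-sequence reference, passed the test between the 6 transgenic and the 3 wildtype mice after adjustment (two-sided exact permutation test, 84 assignments, smallest possible p = 0.0119). The ratio of B2m to the sum of H2-K1 and H2-D1 was 0.460, 0.389 and 0.349 in the Eµ-MTCP1 mice, 0.540, 0.442 and 0.353 in the Eµ-TCL1 mice and 0.694, 0.494 and 0.467 in the wildtype mice. It was lower in the transgenic mice by 0.38 on the log2 scale (exact permutation p = 0.0833, adjusted p = 0.333), with overlap. The ratio of Tap1 to Tap2 was 0.665 ± 0.205 in transgenic and 0.811 ± 0.0962 in wildtype mice (exact permutation p = 0.274, adjusted p = 0.548). The ratio of H2-K1 to H2-D1 was 0.707 ± 0.183 and 0.657 ± 0.110 (exact permutation p = 0.750, adjusted p = 0.952), and that of Tapbp to B2m was 0.104 ± 0.0449 and 0.102 ± 0.0401 (exact permutation p = 0.952). The sign of these last 2 ratios depended on the reference.

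The transcripts that made up each gene were compared on the standard reference, which holds full-length and retained-intron transcripts, for the 8 genes with at least 2 transcripts and 30 reads in every mouse. With 84 assignments and adjustment over 8 genes, a single gene could not go below an adjusted p of 0.0952, so the adjusted values cannot show whether 1 transcript changed and the shares are given as a description. The leading transcript of H2-K1, H2-K1-201, made up 68.6%, 63.5% and 54.4% of the gene's TPM in the Eµ-MTCP1 mice, 68.1%, 64.0% and 61.5% in the Eµ-TCL1 mice and 53.4%, 51.9% and 58.0% in the wildtype mice. The mean was 8.90 percentage points higher in the transgenic mice (exact permutation p = 0.0476, adjusted p = 0.190), and 1 Eµ-MTCP1 mouse lay among the wildtype mice. For Erap1-201, the long coding transcript of Erap1, the shares were 47.5%, 42.5% and 43.0%, then 39.5%, 39.4% and 66.7%, then 93.1%, 52.9% and 67.6% in the same order of groups, a mean lower by 24.7 points in transgenic mice (exact permutation p = 0.0238, adjusted p = 0.190). Most of the rest of Erap1 was Erap1-206, a 660-base coding transcript with 0 to 67 estimated reads per mouse, beside 371 to 892 reads for the 5644-base Erap1-201. Because TPM divides by length, these few reads carried 44.2% of the Erap1 TPM in transgenic and 19.6% in wildtype mice on average. The read counts of Erap1, on which the tests above rest apart from those with length offsets, do not weight transcripts by length. The fit on the standard reference that called Erap1 used length offsets, which take these transcript lengths into account.

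For the other genes, H2-D1-202 held 80.8% to 85.6% and H2-T23-201 83.4% to 92.8% of their gene in every mouse. Tap1-206 held 54.2% to 86.9% and Tapbp-206 64.5% to 71.5%. For Tap2 the leading entry was the retained-intron transcript Tap2-202, at 50.2% to 67.3%, ahead of the coding Tap2-201. Nlrc5 was the most divided, with Nlrc5-207 at 14.4% to 41.5% and a retained-intron transcript at 19.4% to 43.6%. For these genes the exact permutation p was 0.0952 or higher (adjusted p from 0.254), which does not show that their shares were equal. The tests pooled both models, and each model alone was not tested. Tap1-206 was 77.7% to 86.9% in Eµ-TCL1, 72.5% to 77.3% in wildtype and 54.2% to 72.9% in Eµ-MTCP1 mice. Tapbp-206 was 69.7% to 71.5% in Eµ-TCL1 and 65.9% to 66.4% in wildtype mice, and Nlrc5-207 was 14.4% to 34.3% and 35.3% to 41.5%. H2-T23-201 was 90.8% to 92.8% and 89.3% to 90.8%, and H2-D1-202 and Tap2-202 overlapped.

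**Figure D4:**
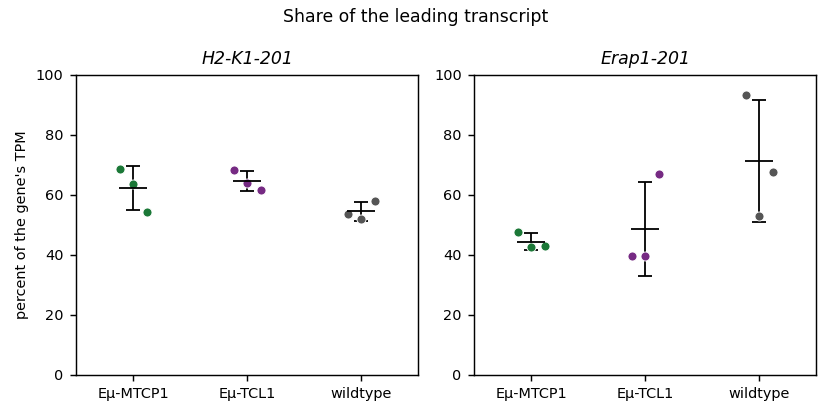
Percent of the gene's TPM held by the leading transcript of H2-K1 (left) and Erap1 (right) in the 3 Eµ-MTCP1, 3 Eµ-TCL1 and 3 wildtype mice, with 1 point per mouse and bars for the mean ± SD. The transgenic means were higher for H2-K1-201 and lower for Erap1-201, with overlap in both.

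The rest of the class I pathway was described by 6 lists of 75 genes in all, the 9 genes included. Among the 66 others, 61 were tested, and 1 was called higher and 6 lower in Eµ-MTCP1, 1 higher and 7 lower in Eµ-TCL1, and none between the models. Over all genes tested the shares called higher and lower were 5.49% and 3.99% in Eµ-MTCP1 and 5.07% and 4.13% in Eµ-TCL1. The 11 peptide loading genes, which include Calr, Canx and Pdia3, had no call in any comparison in the edgeR fit of all 9 libraries, and their medians against wildtype were -0.06 and 0.22 on the log2 scale. With both models averaged, 1 of the 61 was called higher and 9 lower, where 6.95% and 6.16% of all genes were. Of the 18 regulators, 3 fell in Eµ-MTCP1 and 4 in Eµ-TCL1, where 3.99% and 4.13% of all genes were called lower, with list medians of -0.60 and -0.26. These counts depended on the setting, and so did the shares of all genes called lower. In Eµ-MTCP1, DESeq2 called 7 regulators lower, where it called 6.42% of all genes lower, and library size alone gave 8, beside 6.54% of all genes. Without Z2551, Z2641 or Z2755 the count was 2, and without Z2754 it was 1, where 2.21%, 3.18%, 2.38% and 2.21% of all genes, in that order, were called lower. In Eµ-TCL1, DESeq2 called 5 lower, beside 6.94% of all genes. The count there was 2 without Z2785, beside 3.17% of all genes, and 1 without C1594, Z2754 or Z2755, beside 2.26% to 2.60%.

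Both chains of the interferon gamma receptor, through which interferon induces Nlrc5 and class I, fell in both models. Ifngr1, in CPM, was 33.6, 42.6 and 40.0 in the Eµ-MTCP1 mice, 51.7, 43.7 and 34.2 in the Eµ-TCL1 mice and 95.4, 88.7 and 81 in the wildtype mice. Every transgenic mouse was below every wildtype mouse. Its log2 fold changes were -1.19 ± 0.20 (SE; adjusted p = 0.00472) and -1.03 ± 0.20 (adjusted p = 0.00926). Ifngr2, in CPM, was 49.9, 29.1 and 28.1 in the Eµ-MTCP1 mice, 49.9, 40.2 and 34.9 in the Eµ-TCL1 mice and 94.4, 79.2 and 78.6 in the wildtype mice, with log2 fold changes of -1.24 ± 0.25 (adjusted p = 0.0132) and -1.01 ± 0.25 (adjusted p = 0.0312). Ifngr1 kept its call in both models under all 19 alternatives, and Ifngr2 in 18 of 19 and 14 of 19. The call of Ifngr2 was lost in Eµ-MTCP1 without Z2754 (adjusted p = 0.0550), and in Eµ-TCL1 without B4437, C1594 or any 1 wildtype mouse (adjusted p up to 0.113). The receptor's kinase Jak1 fell in Eµ-TCL1 (-0.87, adjusted p = 0.0171) and was at -0.67 in Eµ-MTCP1 (adjusted p = 0.0502). It was not called in Eµ-TCL1 without B4376, C1594, Z2754 or Z2755 (adjusted p up to 0.0619). Rfxap, a subunit of the RFX complex that binds class I promoters together with Nlrc5, fell in Eµ-MTCP1 (-0.85, adjusted p = 0.0461) and in Eµ-TCL1 (-0.94, adjusted p = 0.0315), calls that held in 5 and 11 of 19 alternatives and were lost without any 1 wildtype mouse (adjusted p up to 0.129 and 0.104 over the alternatives). Irf8, an interferon regulatory factor of B cells, was lower with both models averaged (-1.50, adjusted p = 0.0269), and was not called without Z2551 or any 1 wildtype mouse (adjusted p up to 0.102). For each model alone it was at -1.599 in Eµ-MTCP1 and -1.40 in Eµ-TCL1 (adjusted p = 0.0581 and 0.0891 by edgeR), and DESeq2 called both (adjusted p = 0.00370 and 0.0135).

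Of the 12 interferon-induced genes tested, Stat2 and Ifi214 fell in both models. Stat2, a signal transducer of type I interferon, changed by -1.63 in Eµ-MTCP1 (adjusted p = 0.00744) and by -1.14 in Eµ-TCL1 (adjusted p = 0.0360), the latter lost without B4437, C1594 or any 1 wildtype mouse (adjusted p up to 0.122). Ifi214 had 276, 181 and 94 reads in the wildtype mice and 0 to 7 reads in each transgenic mouse (adjusted p = 0.00145 and 0.00268). The signs of the list were mixed, with 3 of the 12 above 0 in Eµ-MTCP1 and 5 of the 12 in Eµ-TCL1. The antiviral genes Oas1a (-2.88), Ifit1 (-2.67) and Ifit3 (-1.72) and the interferon regulatory factor Irf7 (-1.76) had low values in Eµ-MTCP1 that did not pass edgeR's test (adjusted p = 0.0961, 0.145, 0.248 and 0.0880). Above 0, Isg15, a ubiquitin-like protein, was at 1.11 in Eµ-MTCP1 and 1.13 in Eµ-TCL1 (adjusted p = 0.193 and 0.186), and the guanylate-binding protein Gbp2 at 0.58 and 2.31 (adjusted p = 0.602 and 0.0512 by edgeR). In B4376, B4437 and C1594, Gbp2 was 189, 28.5 and 34.4 CPM and Isg15 was 30.8, 12.2 and 9.10 CPM. The wildtype mice had 15.8 to 19.2 CPM of Gbp2 and 5.70 to 11.5 CPM of Isg15. The median of the list was -1.38 in Eµ-MTCP1, where edgeR called 2 of the 12 lower, beside 3.99% of all genes, and DESeq2 5, beside 6.42%. In Eµ-TCL1 it was -0.21, and both its sign and its size rested on single mice. It was -0.69 without B4376, 0.16 without C1594, -0.014 without B4437, -0.41 without Z2754 and 0.035 without Z2785.

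Downstream of these, the proteasome and peptidase lists had few calls. Psme2, a subunit of the interferon-inducible proteasome activator, rose in Eµ-TCL1 (0.87 ± 0.24, adjusted p = 0.0496), but the call held in 9 of 19 alternatives and was lost, among others, without B4376 or any 1 wildtype mouse (adjusted p up to 0.167). All 5 genes of the immunoproteasome and activator list were above 0 in Eµ-TCL1, with a median of 0.76, and Psmb8, a catalytic subunit, was at 0.82 (adjusted p = 0.0510). The leucine aminopeptidase Lap3 rose in Eµ-MTCP1 (0.99 ± 0.25, adjusted p = 0.0321) and was at 0.88 in Eµ-TCL1 (adjusted p = 0.0510). The first call was lost with library size alone and without Z2551, Z2606 or any 1 wildtype mouse (adjusted p up to 0.126). The large cytosolic peptidase Tpp2 was lower with both models averaged (-0.83, adjusted p = 0.0387), a call that held in 10 of 18 alternatives and was lost with length offsets and without Z2551, Z2606, B4376, C1594, Z2754 or Z2755 (adjusted p up to 0.358). Among class I heavy chains and class I-like molecules, 17 of 21 were tested and in the same fit only Fcgrt, the neonatal Fc receptor that pairs with B2m but presents no peptide, was called, at -1.48 in Eµ-MTCP1 (adjusted p = 0.0132) and -1.79 in Eµ-TCL1 (adjusted p = 0.00516). The call in Eµ-MTCP1 was lost without Z2785 (adjusted p = 0.0506).

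Markers of myeloid cells also differed between these mice. The macrophage and monocyte sum was 378 to 784 CPM in Eµ-MTCP1, 139 to 1287 CPM in Eµ-TCL1 and 681 to 1154 CPM in wildtype mice, and the dendritic marker sum was 3.14 to 18.3, 1.82 to 35.3 and 21.3 to 47.3 CPM. Most of the macrophage sum was Lyz2, at 929 of the 1154 CPM in Z2785, and single markers differed in direction. Adgre1 was 24.4 to 40.2 CPM in Eµ-MTCP1 and 19.6 to 20.8 CPM in wildtype mice. Csf1r was 41.0 to 55.1 and 62.4 to 156.7 CPM, and Cd14 was 2.63 to 15.3 and 17.6 to 33.1 CPM. Lyz2 and Itgam overlapped between Eµ-MTCP1 and wildtype mice. B4376, with the highest macrophage sum of all 9 mice, had 51.7 CPM of Ifngr1, the highest of the 6 transgenic mice and below every wildtype mouse, and C1594, with the lowest sum, had 34.2 CPM. The lowest Ifngr1, 33.6 CPM, was that of Z2551, with a macrophage sum of 457 CPM. The part of these cells in the lower Ifngr1, Ifngr2, Irf8, Stat2 and Fcgrt was not tested.

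**Figure D5:**
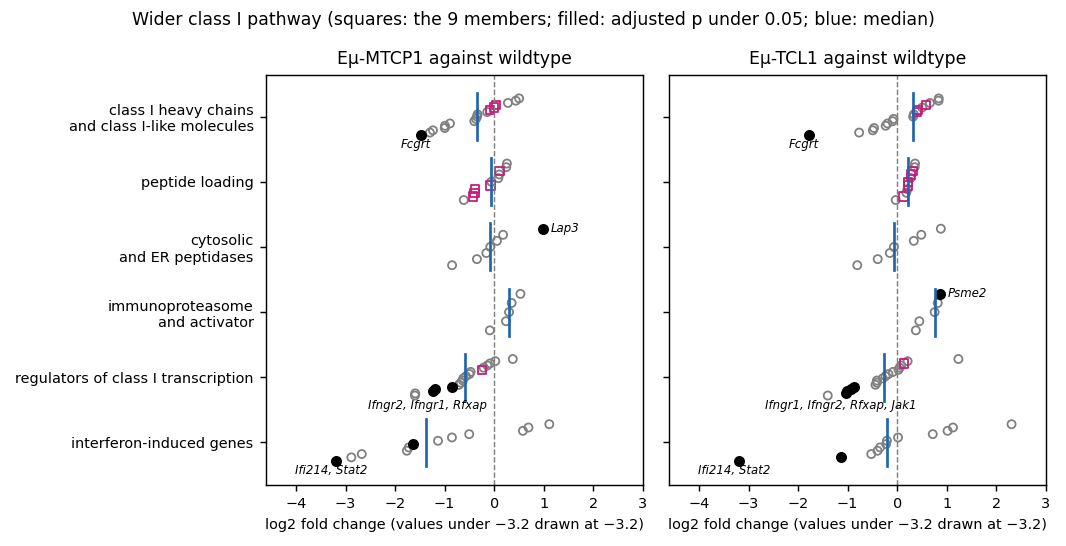
Log2 fold change against wildtype (horizontal axis) of the tested genes in 6 lists of the class I pathway, for Eµ-MTCP1 (left) and Eµ-TCL1 (right), with squares for the 9 class I presentation genes, filled points for called genes, open circles for others and a blue bar for each list's median. The 9 genes run from -0.43 to 0.11 in Eµ-MTCP1 and from 0.13 to 0.58 in Eµ-TCL1, and none was called. Ifngr1, Ifngr2, Rfxap, Stat2, Ifi214 and Fcgrt were called lower in both models (Ifi214 is drawn at the edge of the axis).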

How the data were processed

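Total RNA from enriched splenic B cells of 9 mice was amplified (SMARTer v4), made into Illumina libraries and sequenced on an Illumina HiSeq instrument. The submitters' processing notes name HISAT2 2.0.6, Subread featureCounts, Salmon 1.0.0, DESeq2 and the GRCm38.p4 build. The authors deposited Salmon estimated counts and TPM per transcript on a reference of mouse coding sequences with human genes and on a standard mouse reference, whole gene counts (the counter is not stated for that table) with a version that passed their coverage filter, and DESeq2-normalized values on a log2-like scale. Columns of the authors' own comparisons were not used. Here, estimated counts on the coding-sequence reference were summed per gene with GENCODE M21, rounded, filtered by expression, TMM-scaled and tested with edgeR 4.0.16 (quasi-likelihood, R 4.3.3) in 1 fit of all 9 libraries. Benjamini-Hochberg adjustment ran over 11165 genes, with calls at adjusted p under 0.05. The fit was also run on simulated counts with known changes, and its recovery of them is not reported here. Transcripts absent from M21 (442, with 0.190% to 0.291% of reads) were left out. The coding-sequence reference mostly lacks UTRs, so its TPM are per coding length.

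Ratios and transcript shares were tested over mice by exact permutation (scipy 1.17.1). DESeq2 1.42.0, library size alone, no filter, exclusion of immunoglobulin genes, length offsets, the other deposited tables, only the groups compared and each library left out were tried as alternatives. Assigned reads were 6447542 to 8033303 per library, and 3 reads correspond to 0.326 to 0.495 CPM. Library column names place wildtype mouse Z2755 on another lane than the other 8. The members and gene lists were chosen with earlier results of these data known. The text names the 9 genes throughout, the list genes called in any comparison and, for Nlrc5, the 5 genes with the highest and 3 with the lowest correlation. H2-T22, H2-Q6, H2-M3, H2-Q7, Psmb8, Isg15, Gbp2, Oas1a, Ifit1, Ifit3 and Irf7 were named after their values were seen. A marker and a list gene are not reported here. Since the labels do not state how mice were housed or bred, p-values measure the spread between these mice.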

Additional observations from a re-analysis of the deposited data

How the results depend on the processing

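The count of the 9 genes called was 0 in each comparison under every other setting run for it but 1, libraries left out included. A fit of only the groups compared was not run for both models together. The exception was chosen after the data were seen: on the standard reference with length offsets 1 gene, Erap1, was called in Eµ-TCL1 (log2 fold change 0.81, adjusted p = 0.0379) and in both models together (0.64, adjusted p = 0.0479), and it lay at 0.46 in Eµ-MTCP1. No paired analysis was possible because the replicate numbers only follow accession order. With 3 mice a group, the intervals cover the spread between mice, at a depth of at least 306 reads per gene and library.

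No reversal below concerns a called value. Scaling by library size alone shifted the median of all genes to -0.26 for Eµ-MTCP1, to -0.15 for Eµ-TCL1 and to -0.21 for both together, and put 0, 8 and 3 of the 9 genes above 0. It put H2-K1 and Tap2 at -0.18 and -0.12 in Eµ-MTCP1, Tapbp at -0.011 in Eµ-TCL1, and H2-T23 and Erap1 at -0.0030 and -0.075 in both together. In Eµ-MTCP1, H2-K1 was at -0.039 on the standard reference, -0.038 with the gene counts, -0.057 with the filtered gene counts and -0.13 on the standard reference with length offsets, and H2-D1 was at 0.0025 on the standard reference. Length offsets put Erap1 at 0.28 in Eµ-MTCP1, and Tapbp and Nlrc5 at -0.052 and -0.0053 in Eµ-TCL1. In both together, Tap1 was at 0.010 on the standard reference and 0.0042 with the gene counts, and B2m and Nlrc5 were at 0.014 and 0.11 on the standard reference with length offsets. The log2 ratios of H2-K1 to H2-D1 and of Tapbp to B2m were -0.079 and -0.18 on the standard reference, and the leading transcript of Tap2 on the coding-sequence reference, a different transcript, had a share 1.74 points higher in transgenic mice. The cause was not tested.

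Leaving out 1 mouse at a time gave these ranges where a sign changed. In Eµ-MTCP1 they were -0.23 to 0.29 for H2-K1, -0.18 to 0.097 for H2-D1, -0.054 to 0.22 for Tap2, -0.23 to 0.12 for H2-T23, -0.56 to 0.011 for Nlrc5 and -0.27 to 0.19 for Erap1. In Eµ-TCL1 they were -0.093 to 0.45 for B2m, -0.22 to 0.48 for Tap1, -0.030 to 0.28 for Tapbp and -0.56 to 0.53 for Nlrc5. Between the models Nlrc5 ran from -0.31 to 0.77. In both together they were -0.26 to 0.0087 for B2m, -0.31 to 0.056 for Tap1, -0.28 to 0.026 for Tapbp, -0.40 to 0.20 for Nlrc5 and -0.096 to 0.37 for Erap1. The log2 ratios ran from -0.050 to 0.20 for H2-K1 to H2-D1 and from -0.36 to 0.22 for Tapbp to B2m. Shares of the leading transcript ran from -2.31 to 4.22 points for Tap1, -3.07 to 0.38 for Tap2 and -0.68 to 1.198 for H2-T23.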
